A study of Mus musculus with 12 samples.

Results

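The forebrain and midbrain (F/M) of *Tpp1*-/- mice were compared with those of wild-type (WT) mice in 6 of the 12 RNA-seq libraries of the study, chosen by the sample titles F/M-T1 to F/M-T3 (*Tpp1*-/-) and F/M-N1 to F/M-N3 (WT). All animals were males of 4 months of age, the controls were WT siblings, and *Tpp1* is disrupted by gene targeting in the germ line, so that the gene is lost in every cell type. The other 6 libraries are of cerebellum (Cb) from the same genotypes (Cb-T and Cb-N) and are used here only to ask whether a change in F/M differed from the change in Cb. The study describes 3 mice per genotype, but the labels do not tie each library to a mouse, and p-values measure the spread between these libraries, which may be in part technical.

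*Tpp1* encodes tripeptidyl peptidase 1, a lysosomal protease that cuts short peptides from the ends of proteins, and its loss causes late-infantile neuronal ceroid lipofuscinosis, a storage disease with seizures, glial activation and loss of neurons. By anatomy, forebrain and midbrain take in the cortex, hippocampus, olfactory bulb, striatum, thalamus and hypothalamus as well as the midbrain nuclei. Neurons in these regions switch on immediate early genes when they fire, microglia and astrocytes switch on their own sets of genes when tissue is damaged, and most brain cells answer interferons with a shared set of antiviral genes.

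The F/M libraries held 22822119 to 24458189 counts each, at which 3 counts equal 0.123 to 0.131 CPM, and floors and intervals of this kind cover counting error only. Of 52459 genes listed, 16665 passed the filter on low counts and entered the quasi-likelihood test of edgeR, where the biological coefficient of variation was 0.0303. A gene was called a differentially expressed gene (DEG) where its Benjamini-Hochberg adjusted p (FDR) was below 0.1 and its level moved by 1.5-fold or more. Levels are in CPM, read counts scaled to the size of the library, after TMM scaling of the 6 libraries, and they are compared between libraries, not between genes. Mitochondrial genes took 3.66% to 3.76% of the counts in F/M-N and 4.17% to 4.27% in F/M-T.

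*Tpp1* (ENSMUSG00000030894.5, chromosome 7, 105744811 to 105752235, minus strand) had 91.3, 85.6 and 85.2 CPM in F/M-N and 23.7, 21.5 and 23.2 CPM in F/M-T. Identifiers and coordinates of genes are those of GENCODE vM21 on GRCm38, matched by symbol. The genotypes did not overlap, and the log2 fold change was -1.94 ± 0.05 (SE, adjusted p = 2.7e-16). The counts are summed over the whole gene, so the exons that gave the remaining reads cannot be told from these values. Markers of the labelled tissue were present in every library: the striatal gene *Drd1* had 42.8 to 47.3 CPM and the midbrain dopamine transporter gene *Slc6a3* 13.6 to 16.5 CPM.

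In F/M-T, 438 genes rose and 143 fell, which is 2.63% and 0.858% of the genes tested, or 3.49% in either direction. The median log2 fold change was 0.91 over the genes that rose, -0.84 over those that fell and 0.0078 over all genes tested. A change of at least 4-fold was fitted for 37 of the genes that rose and 8 of those that fell. The libraries of the genotypes did not overlap for 552 of the 581 DEG, against 35.6% of all genes tested.

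**Figure D1:**
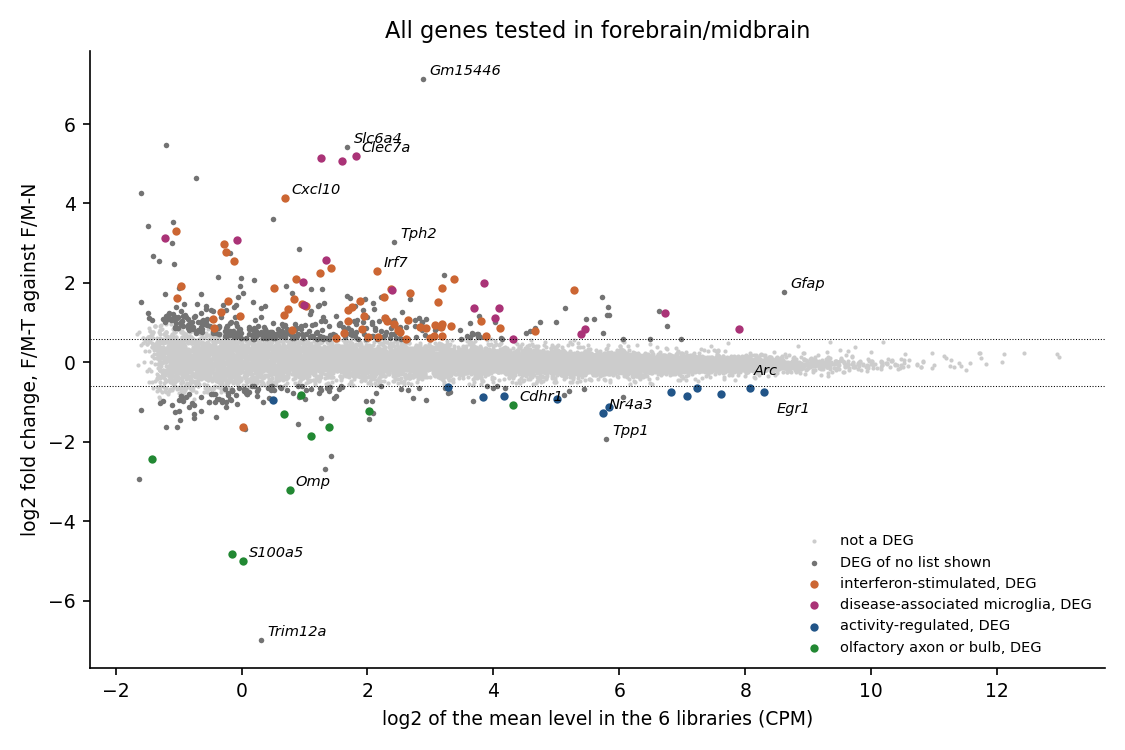
Each point is 1 of the 16665 genes tested, placed by the log2 of its mean level in CPM (horizontal axis) and by its log2 fold change between F/M-T and F/M-N (vertical axis), and the dotted lines mark the 1.5-fold limit. The interferon-stimulated and microglial DEG lie above 0 except *Trim30d*, the activity-regulated and olfactory DEG lie below 0, and among genes of high level the activity-regulated DEG make up most of the points under the lower line.

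The increases with the largest fold changes were led by *Gm15446*, a gene predicted from sequence, with 0.0420, 0.130 and 0.123 CPM in F/M-N and 15.1, 13.5 and 15.2 CPM in F/M-T. In Cb-T this gene also rose (edgeR log2 fold change 6.60, adjusted p = 4.2e-29), and its interaction of 0.52 did not pass (adjusted p = 0.65). Next in F/M came *Trim34b*, *Slc6a4*, *Clec7a*, *Cst7* and *Itgax*, which are described with their groups. *Ly9*, a receptor of lymphoid and myeloid cells, rose from 0.123 to 0.304 CPM to 2.17 to 3.35 CPM, a log2 fold change of 3.61 ± 0.32 (adjusted p = 8.1e-08). Other members of this top group were counted only a few times in F/M-N. The macrophage elastase gene *Mmp12* had 3 counts in F/M-N against 83 in F/M-T, a ratio of 28.1 after scaling by library size (95% exact binomial interval 9.29 to 139). The immune checkpoint receptor gene *Pdcd1* had 2 against 45 counts (ratio 22.9, interval 5.97 to 194). *Serpinf2*, which encodes an inhibitor of plasmin, had 5 against 62 counts (ratio 12.6, interval 5.12 to 40.1), and the inhibitory leukocyte receptor gene *Lilr4b* had 4 against 47 (ratio 11.9, interval 4.36 to 45.6).

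The largest decreases included several genes of the olfactory pathway, taken up below, and *Frmd7*, a gene known for its part in the control of eye movements. *Frmd7* had 4.28, 4.56 and 4.56 CPM in F/M-N and 0.651, 0.898 and 1.06 CPM in F/M-T, giving a log2 fold change of -2.35 ± 0.18 (adjusted p = 1.0e-08). The transcript *Gm43305* fell from 3.91 to 5.04 CPM to 0.434 to 1.02 CPM, and its log2 fold change was -2.68 in F/M and -2.62 in Cb. *Bglap3*, of the osteocalcin gene cluster, fell from 1.44 to 1.68 CPM to 0.261 to 0.638 CPM. *Gm4779* on the X chromosome had 41 counts in F/M-N and 5 in F/M-T.

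Among the 8094 tested genes with a mean of at least 20 CPM in F/M-N, 18 fell (0.222%), and 10 of these 18 belong to the list of activity-regulated genes, which holds 43 of the 8094. The level of 20 CPM was chosen after the values had been seen. The other 8 genes, named for the same reason, were *Tpp1*, *Cdhr1*, *Prkcd*, *Tmem181b-ps*, *Per2*, *Eif2s3y*, *Dchs1* and *Sowahb*. Many, but not all, genes of the activity-regulated list are copied within minutes of calcium entry and cAMP signals in neurons. The factors that drive them include CREB, which binds the sequence TGACG and its palindrome TGACGTCA. Among the products of the listed genes are transcription factors of the FOS, EGR and NR4A families, the synaptic proteins ARC and HOMER1, and phosphatases that damp MAP kinase signals.

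To show the promoter sequence of genes of this group, the 250 bases before the RefSeq start (GRCm38.p6) are given 5′ to 3′ on the strand of the gene for *Nr4a1* and *Fosb*, both of which fell in F/M-T. Capitals mark TGACG, or CGTCA where the match is on the opposite strand.
Nr4a1 (chr15:101266596-101266845, plus strand): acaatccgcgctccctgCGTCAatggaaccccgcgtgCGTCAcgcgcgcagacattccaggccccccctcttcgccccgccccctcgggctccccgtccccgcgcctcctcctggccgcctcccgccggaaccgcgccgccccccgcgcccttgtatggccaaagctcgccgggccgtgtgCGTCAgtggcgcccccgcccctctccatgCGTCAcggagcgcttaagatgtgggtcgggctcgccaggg
Fosb (chr7:19310046-19310295, minus strand): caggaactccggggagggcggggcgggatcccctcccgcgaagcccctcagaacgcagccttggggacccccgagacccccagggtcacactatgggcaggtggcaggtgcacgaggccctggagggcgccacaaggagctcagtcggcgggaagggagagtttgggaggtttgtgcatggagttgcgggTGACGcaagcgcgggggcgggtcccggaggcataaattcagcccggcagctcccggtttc
TGACG on either strand was found in this window for 8 of the 9 activity-regulated DEG whose promoters are in the RefSeq table (88.9%), and for 23 of 37 listed genes that were not DEG (62.2%). Over the 12011 tested genes with a promoter in the table the share was 28.9%. TGACGTCA, which contains TGACG on both strands, was found in 11.1%, 21.6% and 2.95% of the same groups. These matches describe the letters of the window only.

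All 60 activity-regulated genes on the list were tested, and 13 fell while none rose, against 0.858% of all genes tested that fell. The median log2 fold change of the list was -0.36, against 0.0078 over all genes. At any fold change, 43 of the 60 were lower and 1 was higher at an FDR below 0.1, where 14.4% and 12.8% of all genes were. In bulk RNA, fewer cells of a type and less RNA per cell cannot be told apart. The 15 pan-neuronal genes held no DEG, with summed levels of 11718 to 11826 CPM in F/M-N and 11369 to 11431 CPM in F/M-T. At any fold change, 7 of the 15 were lower and 1 was higher at an FDR below 0.1. Their part in the decreases was not tested.

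The nuclear receptor genes of the NR4A family showed unequal decreases. *Nr4a3* (chromosome 4, 48045153 to 48086447) had 74.5, 74.8 and 76.7 CPM in F/M-N and 32.0, 31.5 and 30.3 CPM in F/M-T. Every F/M-T library was below 33 CPM, and the log2 fold change was -1.27 ± 0.04 (adjusted p = 1.6e-14). *Nr4a1* had 180, 167 and 171 CPM in F/M-N and 97.2, 91.5 and 99.7 CPM in F/M-T, giving a log2 fold change of -0.85 ± 0.04 (adjusted p = 1.7e-12). *Nr4a2*, which is also needed for dopamine neurons, went from 60.9 to 62.5 CPM to 45.3 to 46.5 CPM, a log2 difference of -0.43 that lies under the fold limit (adjusted p = 1.6e-07).

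Of the FOS family, *Fosl2* (chromosome 5, 32135801 to 32157842) had 78.8, 80.3 and 77.4 CPM in F/M-N and 32.9, 37.4 and 37.5 CPM in F/M-T. The libraries were well apart, with a log2 fold change of -1.13 ± 0.05 (adjusted p = 7.4e-13). *Fosb* had 39.4, 43.6 and 42.9 CPM in F/M-N and 20.3, 22.4 and 24.0 CPM in F/M-T, giving a log2 fold change of -0.92 ± 0.06 (adjusted p = 1.0e-09). *Fos* itself stood at 88.3, 89.6 and 90.0 CPM in F/M-N and 64.3, 62.8 and 62.4 CPM in F/M-T, and its log2 difference of -0.50 ± 0.04 (adjusted p = 4.0e-09) is under the fold limit although the genotypes did not overlap. The partner genes behaved differently: *Jun* had 50.9 to 61.7 CPM in F/M-N and 57.0 to 61.4 CPM in F/M-T (log2 difference 0.10, adjusted p = 0.24). *Jund* had the widest spread in F/M-N, from 44.6 to 69.8 CPM, against 67.1 to 70.4 CPM in F/M-T (log2 difference 0.29, adjusted p = 0.029). Its difference was 0.15 (adjusted p = 0.19) without F/M-N replicate 1 and 0.49 without F/M-N replicate 3, and the adjusted p was 0.35 with DESeq2. The small leucine zipper gene *Maff* fell at a low level, from 1.64 to 2.05 CPM to 0.782 to 1.11 CPM.

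The zinc finger genes *Egr1*, *Egr2* and *Egr3* of the EGR family fell. *Egr1* had 401, 390 and 398 CPM in F/M-N and 234, 232 and 240 CPM in F/M-T, giving a log2 fold change of -0.75 ± 0.03 (adjusted p = 1.1e-13). *Egr2* had 23.9, 21.9 and 23.1 CPM against 12.7, 13.1 and 12.8 CPM (log2 fold change -0.84 ± 0.06), and *Egr3* 181, 182 and 186 CPM against 118, 117 and 119 CPM (log2 fold change -0.64 ± 0.03). For all 3 genes the lowest F/M-N library was above the highest F/M-T library by a wide margin.

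*Arc*, which controls the removal of glutamate receptors from synapses, had 330, 324 and 328 CPM in F/M-N and 210, 204 and 214 CPM in F/M-T, giving a log2 fold change of -0.65 ± 0.03 (adjusted p = 1.7e-12). *Homer1*, whose short activity-induced form loosens the postsynaptic scaffold, had 248, 257 and 238 CPM against 140, 150 and 140 CPM, a log2 fold change of -0.79 ± 0.04 (adjusted p = 2.1e-12), and gene-level counts do not separate its forms. The growth factor gene *Bdnf* (29.0 to 32.4 CPM against 22.8 to 23.5 CPM), the synaptic pentraxin gene *Nptx2* (45.1 to 47.7 against 36.9 to 37.7 CPM) and the neuron-specific factor gene *Npas4* (54.0 to 57.0 against 42.3 to 45.2 CPM) had log2 differences of -0.40, -0.31 and -0.32, under the fold limit. Their libraries did not overlap between the genotypes.

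The phosphatase genes *Dusp5* (18.1 to 18.9 CPM against 9.75 to 10.2 CPM) and *Dusp4* (11.2 to 12.8 CPM against 6.43 to 8.73 CPM) fell by 0.87 and 0.63 on the log2 scale. The call of *Dusp4* was lost without F/M-N replicate 3 (-0.57) and without F/M-T replicate 1 (-0.53). The clock gene *Per1*, which CREB also drives, had 143, 141 and 141 CPM in F/M-N and 81.6, 83.8 and 85.8 CPM in F/M-T, giving a log2 fold change of -0.76 ± 0.03 (adjusted p = 1.7e-12). *Btg2* stayed at 46.7 to 48.8 CPM in F/M-N and 48.7 to 50.9 CPM in F/M-T (log2 difference 0.05, adjusted p = 0.40).

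**Figure D2:**
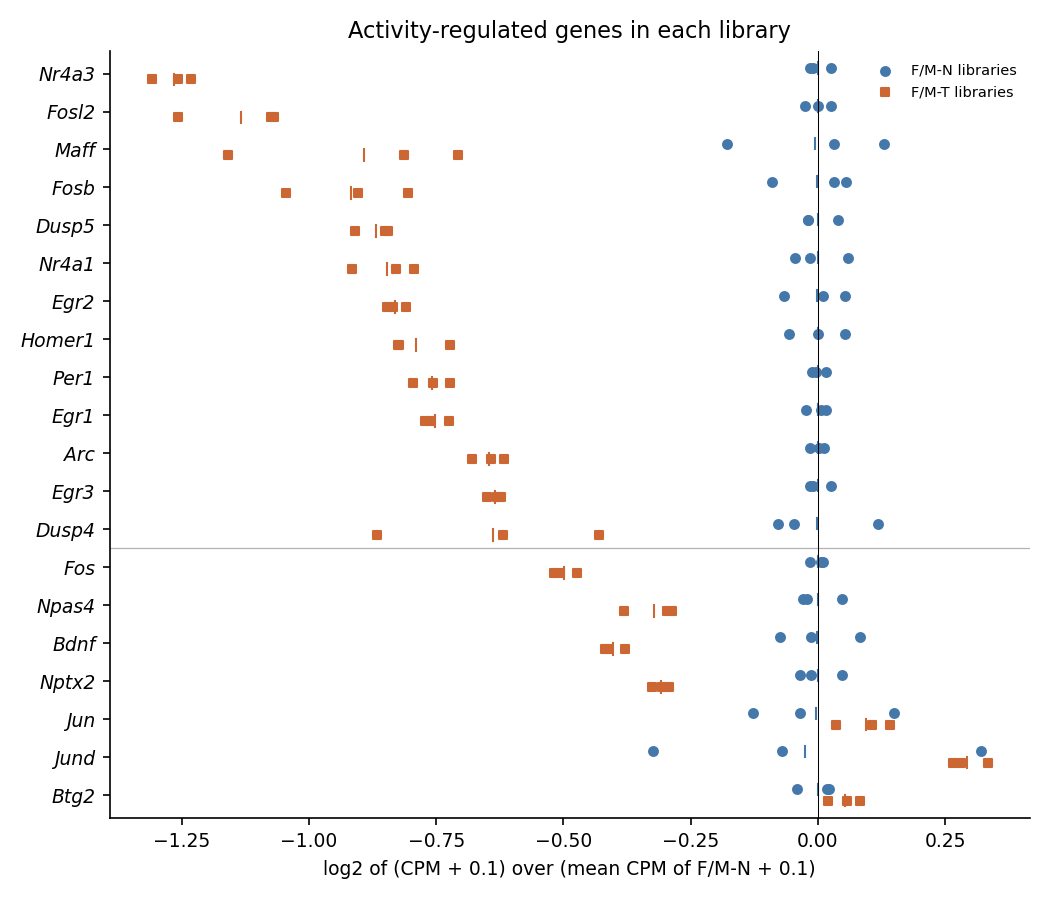
For each gene (rows), circles are the 3 F/M-N libraries and squares the 3 F/M-T libraries, placed by the log2 of the level (CPM + 0.1) over the mean of F/M-N, and short vertical lines are the means of each group. The 13 genes above the grey line are the DEG of the list, all with every square left of every circle, and the means of the squares of *Jun*, *Jund* and *Btg2* are right of 0.

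The change in F/M differed from that in Cb by the tissue-by-genotype interaction (FDR below 0.1, with the changes 1.5-fold or more apart) for 17 of the 60 activity-regulated genes, where 7.61% of all genes tested did. The F/M change was the lower for 15 and the higher for 2. *Egr2* fell by 0.84 on the log2 scale in F/M and rose by 2.49 in Cb-T (interaction -3.34, adjusted p = 9.0e-08), and the changes of *Egr1* (0.44), *Egr3* (1.09), *Arc* (0.51), *Maff* (0.41) and *Nptx2* (1.73) were above 0 in Cb. *Nr4a3* changed the other way, with -2.51 in Cb and -1.27 in F/M (interaction 1.23, adjusted p = 3.3e-15). Marker lists of other brain regions moved unequally between Cb-T and Cb-N. The median log2 fold change in Cb was 2.26 for monoaminergic and cholinergic, 1.16 for hypothalamic and pituitary, 0.53 for striatal, 0.12 for thalamic, -0.082 for glutamatergic and GABAergic and -0.22 for cortical and hippocampal genes, and their part in the differences from Cb was not tested.

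Olfactory genes made up much of the top of the falling list. Sensory neurons of the nose send axons that carry their own transcripts into the glomeruli of the olfactory bulb, where mitral and tufted cells receive them. Of 31 listed genes of these axons and of bulb neurons, 29 were tested, 10 fell, against 0.858% of all genes tested, and none rose, with a median log2 fold change of -0.22. The libraries of the genotypes did not overlap for 19 of the 29, against 35.6% of all genes tested.

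Among transcripts of the sensory axons, *S100a5*, a calcium-binding protein gene, had 2.18, 2.00 and 1.73 CPM in F/M-N and 0.0434, 0 and 0.128 CPM in F/M-T. These are 140 against 4 counts, a ratio of 34.5 after scaling by library size (95% exact binomial interval 13.2 to 128). *Omp*, the olfactory marker protein gene (chromosome 7, 98143359 to 98145502), had 3.23, 2.69 and 3.29 CPM in F/M-N and 0.261, 0.245 and 0.468 CPM in F/M-T. Its log2 fold change was -3.23 ± 0.26 (adjusted p = 1.5e-08), and no library came near the other genotype. *Gng13*, a G protein subunit gene of the same neurons that is also found elsewhere in the brain, had 10.3 to 14.2 CPM in F/M-N and 10.9 to 12.5 CPM in F/M-T. The odorant signalling genes *Adcy3* (71.9 to 76.3 against 64.8 to 66.3 CPM, log2 difference -0.16) and *Gnal* (312 to 320 against 298 to 314 CPM, -0.05) were not DEG, and striatal and cortical neurons use both.

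Bulb neurons were represented by transcription factors of mitral and tufted cells and by markers of interneurons. *Ms4a15* had 124 counts in F/M-N and 4 in F/M-T, a ratio of 30.5 (interval 11.6 to 114). *Tbx21* had 45 and 8 counts, a ratio of 5.54 (interval 2.58 to 13.6). *Eomes*, another T-box factor gene of these output neurons, had 3.23, 3.56 and 3.33 CPM in F/M-N and 1.09, 0.775 and 0.935 CPM in F/M-T (edgeR log2 fold change -1.85 ± 0.19, adjusted p = 4.7e-07). All of these had F/M-T libraries below every F/M-N library. In Cb-T *Eomes* also fell (edgeR log2 fold change -2.20, adjusted p = 4.0e-32), and its interaction of 0.33 did not pass (adjusted p = 0.29).

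The protocadherin-like gene *Cdhr1* (chromosome 14, 37077857 to 37098347), which mitral cells and photoreceptors express, had 27.1, 27.8 and 25.7 CPM in F/M-N and 13.2, 12.3 and 12.8 CPM in F/M-T. Its log2 fold change was -1.07 ± 0.06 (adjusted p = 1.5e-10). *Doc2g* fell from 3.57 to 4.64 CPM to 0.978 to 1.65 CPM, and the peptide gene *Nmb* from 2.31 to 2.56 CPM to 1.11 to 1.65 CPM. Of the interneuron genes, *Scgn* fell from 1.48 to 2.86 CPM to 0.478 to 1.14 CPM and *Sp8* from 5.08 to 6.25 CPM to 2.04 to 2.69 CPM. The interneuron markers *Th* and *Calb2* were level. *Th*, the rate-limiting enzyme of dopamine synthesis in bulb and midbrain, had 14.1 to 14.7 CPM in F/M-N and 14.4 to 14.8 CPM in F/M-T. *Calb2* had 65.8 to 71.0 and 66.2 to 69.9 CPM. At any fold, 13 of the 17 bulb neuron genes were lower and none higher at an FDR below 0.1. Over all genes the shares were 14.4% and 12.8%. The 10 subventricular neuroblast genes, whose cells migrate to the bulb, held no DEG (median -0.14), and 4 were lower and none higher at an FDR below 0.1 at any fold. Their summed level was 461 to 483 CPM in F/M-N and 452 to 468 CPM in F/M-T, and how much bulb tissue each library held was not tested.

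*Prkcd*, a protein kinase gene of thalamic relay neurons (chromosome 14, 30595354 to 30626210), had 85.7, 85.7 and 86.6 CPM in F/M-N and 48.2, 45.9 and 47.1 CPM in F/M-T, giving a log2 fold change of -0.87 ± 0.04 (adjusted p = 1.5e-12). It was the 1 DEG of 11 thalamic genes, where 0.858% of all genes fell. The median of the list was -0.30, and 8 were lower and 1 higher at an FDR below 0.1 at any fold, against 14.4% and 12.8% of all genes. The summed level of the list was 573 to 589 CPM in F/M-N and 455 to 469 CPM in F/M-T. *Tcf7l2* and *Lef1*, factors of the WNT pathway that mark the thalamus, had log2 differences of -0.30 (adjusted p = 5.2e-04) and -0.23 (adjusted p = 0.061). No DEG was found among 15 cortical and hippocampal genes (median -0.12) or 10 striatal genes (median -0.07). At any fold, 8 of the 15 were lower and 1 higher at an FDR below 0.1, and 3 of the 10 were lower and none higher. The summed level of the cortical and hippocampal list was 796 to 814 CPM in F/M-N and 716 to 756 CPM in F/M-T.

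The clock list of 21 genes held *Per1* and *Per2* as its DEG, both lower, where 0.858% of all genes fell. *Per2* had 46.6, 46.3 and 44.4 CPM in F/M-N and 27.2, 28.1 and 28.2 CPM in F/M-T (edgeR log2 fold change -0.71 ± 0.05, adjusted p = 1.1e-09), with no overlap. The hour of the day at which tissue was taken is not given in the sources used here. The third period gene, *Per3*, had a log2 difference of -0.22 (adjusted p = 0.0021). Over the list the median was -0.19, and 16 genes were lower and 1 higher at an FDR below 0.1 at any fold, against 14.4% and 12.8% of all genes. Of the receptors for vasoactive intestinal peptide, *Vipr2*, the form that couples the neurons of the circadian centre, fell from 5.59 to 6.26 CPM to 2.29 to 2.78 CPM (log2 fold change -1.27 ± 0.13, adjusted p = 5.9e-07). *Vipr1* was at -0.33 (adjusted p = 2.9e-04), under the fold limit, and the peptide gene *Vip* at 0.05 (adjusted p = 0.58).

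Serotonergic genes moved the opposite way. *Slc6a4* (chromosome 11, 76998603 to 77032340), the serotonin transporter gene, had 0.126, 0.0869 and 0.205 CPM in F/M-N and 6.69, 6.0 and 6.12 CPM in F/M-T, or 10 against 445 counts. The log2 fold change was 5.43 ± 0.24 (adjusted p = 1.5e-12). *Tph2* (chromosome 10, 115078641 to 115185022), the rate-limiting enzyme of serotonin synthesis in neurons, had 1.22, 1.39 and 0.904 CPM against 9.34, 9.47 and 9.86 CPM, a log2 fold change of 3.03 ± 0.14 (adjusted p = 2.5e-12). Both genes are made in the raphe nuclei at the border of midbrain and hindbrain. *Fev*, a transcription factor gene of the same neurons, was not tested, with 0, 0 and 2 counts in F/M-N and 5, 5 and 4 in F/M-T. The other monoamine genes were not DEG, with log2 differences of 0.37 for *Ddc* (adjusted p = 4.5e-04), 0.53 for *Slc18a2* (adjusted p = 4.6e-05) and 0.05 for *Slc6a3* (adjusted p = 0.67). Of the 16 monoaminergic and cholinergic genes tested, *Slc6a4* and *Tph2* were the DEG, both higher (median 0.27), where 2.63% of all genes rose. At any fold, 5 were higher and none lower at an FDR below 0.1, against 12.8% and 14.4% of all genes. All 16 had a log2 fold change above 0. The summed level of the list was 142 to 147 CPM in F/M-N and 185 to 197 CPM in F/M-T. Over that list the change was higher in F/M than in Cb for 2 genes and lower for 7, against 1.06% and 6.58% of all genes. The 2 with the higher change were *Slc6a4* (interaction 2.87, adjusted p = 2.6e-04) and *Tph2* (1.31, adjusted p = 7.8e-04). *Slc6a4* rose in Cb-T too (edgeR log2 fold change 2.53, adjusted p = 7.5e-09). Where the cut between the regions lay in each animal was not tested.

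**Figure D3:**
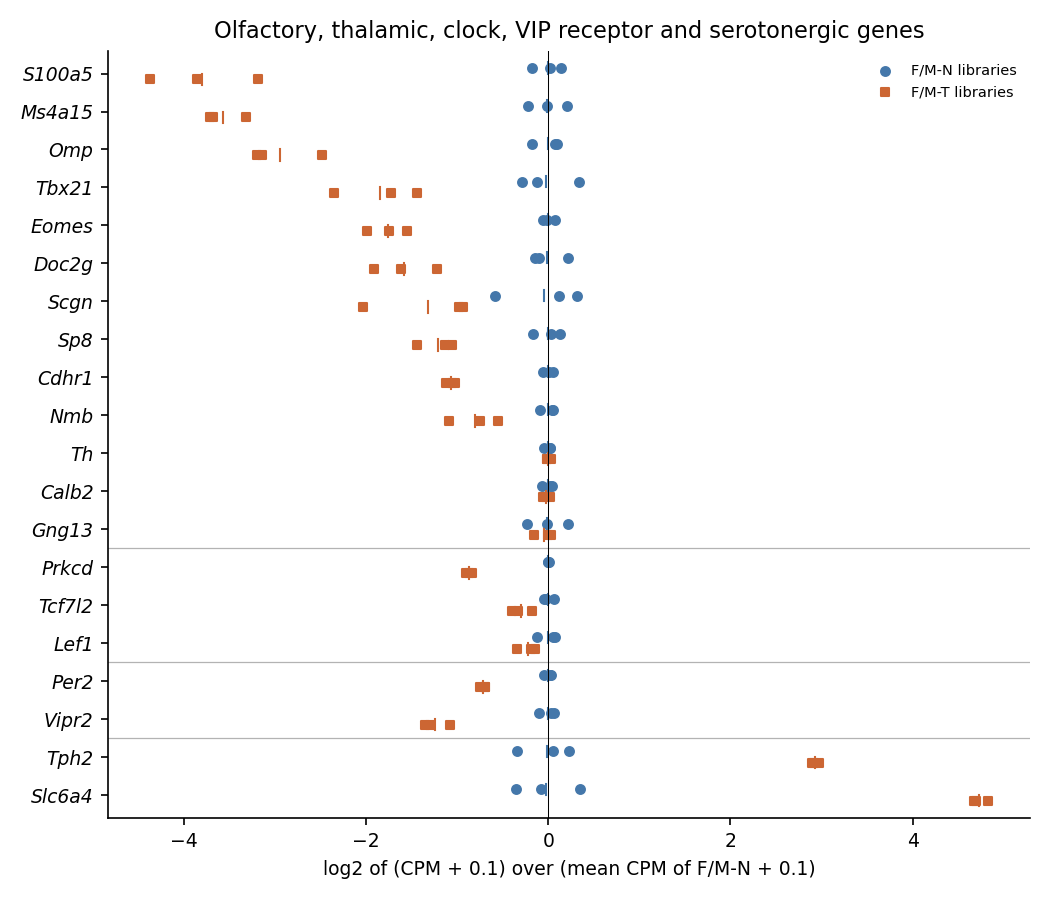
Each row is a gene, with circles for the 3 F/M-N libraries and squares for the 3 F/M-T libraries, placed by the log2 of the level (CPM + 0.1) over the mean of F/M-N, and short vertical lines are group means. From top to bottom, grey lines divide olfactory, thalamic, clock with VIP receptor, and serotonergic genes. The 10 olfactory DEG lie left of 0, *Th*, *Calb2* and *Gng13* lie at 0, and the serotonergic genes lie to the right by about their log2 fold changes of 3.03 and 5.43, which the added 0.1 CPM shortens.

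Several DEG lie close to *Tpp1* itself on chromosome 7. Within 2 Mb on either side, 8 of 30 tested genes were DEG (26.7%), and between 2 and 10 Mb 5 of 139 (3.60%), against 4.51% of 1131 genes on the rest of the chromosome and 3.36% of 14943 genes on other chromosomes. The neighbour *Dchs1* (chromosome 7, 105752990 to 105787654), which encodes a large cadherin, fell from 21.5 to 22.5 CPM to 13.3 to 15.5 CPM (log2 fold change -0.64 ± 0.07). *Olfml1*, at 1.82 Mb, rose from 10.2 to 11.8 CPM to 20.9 to 22.9 CPM (log2 fold change 1.01 ± 0.07). *Omp* is 7.60 Mb away.

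A cluster of tripartite motif genes, which belong to the antiviral defence, lies 1.27 to 1.5 Mb from *Tpp1*, and its members moved in both directions. *Trim12a* had 174 counts in F/M-N and 1 in F/M-T, a ratio of 171 (95% exact binomial interval 30.3 to 6805), and *Trim34b* had 1 and 61 counts, a ratio of 62.0 (interval 10.7 to 2487). *Trim30d* (log2 fold change -1.64) and *Trim34a* (-1.12) fell, and *Trim30a* (1.04) and *Trim12c* (1.01) rose. These genes are near-identical copies that can share reads, so which of them each read came from is uncertain. Whether sequence differences between the *Tpp1*-/- and WT chromosomes in this interval moved reads was not tested.

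Interferons bind receptors on nearly every cell, transcription factors that include IRF9 then enter the nucleus, and they bind promoters that carry the repeat GAAA, 2 bases of any kind, GAAA. To show this sequence in genes that rose, the 250 bases before the RefSeq start (GRCm38.p6) are given 5′ to 3′ on the strand of the gene. Capitals mark this repeat or, where it is on the opposite strand, TTTC, 2 bases, TTTC, and overlapping matches run together.
Isg15 (chr4:156200819-156201068, minus strand): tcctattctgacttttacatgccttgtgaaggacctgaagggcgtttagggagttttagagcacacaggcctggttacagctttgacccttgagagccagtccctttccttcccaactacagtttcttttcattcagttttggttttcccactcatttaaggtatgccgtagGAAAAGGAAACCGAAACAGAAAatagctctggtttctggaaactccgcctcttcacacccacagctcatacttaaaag
Ifit3 (chr19:34583279-34583528, plus strand): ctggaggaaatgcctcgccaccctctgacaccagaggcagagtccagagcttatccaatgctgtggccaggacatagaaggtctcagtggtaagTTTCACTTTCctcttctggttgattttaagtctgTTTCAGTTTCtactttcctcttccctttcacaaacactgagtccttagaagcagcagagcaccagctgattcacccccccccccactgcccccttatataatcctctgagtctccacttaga
Cxcl10 (chr5:92348890-92349139, minus strand): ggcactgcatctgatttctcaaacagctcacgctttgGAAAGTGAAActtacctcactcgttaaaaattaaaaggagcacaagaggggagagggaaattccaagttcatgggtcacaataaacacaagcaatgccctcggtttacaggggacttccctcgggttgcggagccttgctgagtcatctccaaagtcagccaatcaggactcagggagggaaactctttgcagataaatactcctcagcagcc
Rsad2 (chr12:26456453-26456702, minus strand): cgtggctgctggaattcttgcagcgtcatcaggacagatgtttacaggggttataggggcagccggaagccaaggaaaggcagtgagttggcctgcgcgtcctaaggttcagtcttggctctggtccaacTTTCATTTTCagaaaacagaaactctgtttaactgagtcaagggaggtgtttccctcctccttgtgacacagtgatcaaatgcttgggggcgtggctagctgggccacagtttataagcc
The repeat was found on either strand for 17 of the 38 interferon-stimulated genes that rose and have a promoter in the table (44.7%), for 7 of 17 listed genes that were not DEG (41.2%) and for 3.07% of the 12011 tested genes. For the disease-associated microglia genes that rose it was found in 1 of 15 (6.67%).

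Of 90 interferon-stimulated genes listed, 78 were tested, and 60 rose and 1 fell, against 2.63% of all genes tested that rose. The median log2 fold change of the list was 0.95. Values of F/M-T and F/M-N did not overlap for 58 of the 60, against 35.6% of all genes tested and 552 of the 581 DEG. The summed level of the list was 561 to 581 CPM in F/M-N and 825 to 854 CPM in F/M-T. The gene that fell, *Trim30d*, and *Trim30a*, one of those that rose, belong to the cluster beside *Tpp1* in which copies can share reads.

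*Irf7* (chromosome 7, 141262706 to 141266481), the factor that amplifies interferon production, had 1.30, 1.74 and 1.44 CPM in F/M-N and 8.12, 6.86 and 7.23 CPM in F/M-T. The log2 fold change was 2.31 ± 0.14 (adjusted p = 4.3e-10), with every F/M-T library above 6 CPM and every F/M-N library below 2 CPM. *Irf9*, which carries the signal of the receptor to the promoters, had 11.1, 11.3 and 12 CPM against 17.5, 18.9 and 17.7 CPM (log2 fold change 0.65 ± 0.07). *Usp18*, which removes ISG15 from proteins and restrains the receptor, rose from 0.740 to 0.924 CPM to 3.30 to 4.42 CPM (log2 fold change 2.24 ± 0.19).

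Among effectors, the ubiquitin-like modifier gene *Isg15* had 0.588, 0.912 and 1.07 CPM in F/M-N and 3.91, 5.18 and 4.34 CPM in F/M-T (edgeR log2 fold change 2.38 ± 0.20, adjusted p = 4.0e-08). The RNA-binding genes *Ifit1* (2.52 to 3.13 against 9.59 to 10.3 CPM) and *Ifit3* (3.74 to 4.00 against 13.4 to 14.9 CPM) rose by 1.75 and 1.86 on the log2 scale. Their neighbour *Ifit2* had 13.6 to 15.5 and 18.8 to 20.5 CPM, a log2 difference of 0.45 that stays under the fold limit. *Oasl2* of the oligoadenylate synthetase family rose from 3.56 to 4.24 CPM to 16 to 17.5 CPM (log2 fold change 2.10 ± 0.09), *Rsad2*, which encodes viperin, from 1.64 to 2.10 CPM to 5.17 to 5.74 CPM (1.56 ± 0.14), and the GTPase gene *Mx1* from 0.164 to 0.261 CPM to 1.31 to 1.74 CPM (2.77 ± 0.33). The tethering protein gene *Bst2* rose from 2.02 to 2.47 CPM to 7.35 to 9.03 CPM (1.85 ± 0.13).

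The chemokine *Cxcl10*, which draws T cells, had 0.294, 0.217 and 0 CPM in F/M-N and 3.47, 3.43 and 2.25 CPM in F/M-T, giving a log2 fold change of 4.14 ± 0.38 (adjusted p = 1.3e-07). *Ccl5* rose from 0.0411 to 0.130 CPM to 0.651 to 1.15 CPM. Over the chemokine list, 9 of 12 genes tested rose, against 2.63% of all genes, and none fell, with a median log2 fold change of 1.58. At any fold 2 were lower at an FDR below 0.1, where 14.4% of all genes were, and the summed level of the list went from 828 to 852 CPM in F/M-N to 738 to 742 CPM in F/M-T. *Cxcl9*, which was not tested, had 0 counts in each F/M-N library and 4, 17 and 9 in F/M-T. The interferon genes on the list were at or near 0: *Ifnb1* had 1 count over the 6 libraries, and *Ifna2*, *Ifna4*, *Ifng*, *Ifnl2* and *Ifnl3* had none. Interferon genes outside the list were not looked up. Of the 15 genes tested among interferons, receptors and their regulators, *Irf5* and *Irf8*, which microglia express, rose. Of 16 lymphocyte markers, 3 were tested and 1 rose, the granzyme gene *Gzmk* (log2 fold change 1.05, adjusted p = 0.036). *Cd3e* had 4 counts over the F/M-N and 10 over the F/M-T libraries, and the summed level of the list was 10.03 to 10.9 CPM in F/M-N and 12.03 to 13.3 CPM in F/M-T.

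Genes of class I antigen presentation rose as well. Of 16 tested, 10 rose, against 2.63% of all genes, with a median of 1.10 over the list, and 4 of the listed genes are also on the interferon list. *B2m*, the invariant light chain, had 62.7, 60.9 and 65.0 CPM in F/M-N and 151, 143 and 150 CPM in F/M-T (edgeR log2 fold change 1.23 ± 0.04, adjusted p = 3.6e-15). The heavy chain genes *H2-K1* (19.3 to 23.2 against 41.8 to 43.6 CPM) and *H2-D1* (26.5 to 30.8 against 58.1 to 62.3 CPM) rose by 1.00 and 1.08, and reads of this family can be shared between near-identical copies. Of 8 class II genes tested, 4 rose, among them the invariant chain gene *Cd74*, from 4.07 to 4.52 CPM to 8.12 to 9.75 CPM (log2 fold change 1.07 ± 0.11).

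Over the interferon-stimulated list, 11 genes passed the interaction test with the higher change in F/M and 2 with the lower one. Of all genes tested in F/M, 1.06% had a higher change there and 6.58% a lower one. *Irf7* rose by 2.31 in F/M and 0.96 in Cb (interaction 1.33, adjusted p = 1.6e-05), *Usp18* by 2.24 and 1.17 (1.05, adjusted p = 0.0071), and *Ifit3* by 1.86 and 1.02 (0.83, adjusted p = 1.2e-04). For *Irf9* (0.65 against -0.10) the interaction was 0.73. Among listed genes that were not DEG in F/M, *Herc6* (0.09 against 0.66) and *Oas1c* (0.41 against 1.52) had the larger change in Cb. For the remaining members no difference passed the test, which does not show that they changed alike.

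Microglia, the resident macrophages of the brain, keep a homeostatic programme in healthy tissue and a disease-associated one around dying cells and stored material. Of 30 disease-associated genes, all tested, 18 rose and none fell, with a median log2 fold change of 0.93, while 5 of 18 homeostatic genes rose (median 0.35), against 2.63% of all genes tested.

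The disease-associated genes with the largest changes were close to the detection floor in F/M-N. *Clec7a*, the receptor dectin-1 (chromosome 6, 129461591 to 129472779), had 0.0840, 0.261 and 0.205 CPM in F/M-N and 7.47, 6.41 and 6.63 CPM in F/M-T, giving a log2 fold change of 5.18 ± 0.23 (adjusted p = 1.7e-12). *Cst7*, an inhibitor of lysosomal cathepsins, had 9 counts in F/M-N against 331 in F/M-T, and *Itgax*, the integrin CD11c, rose from 0.0840 to 0.288 CPM to 5.70 to 6.12 CPM (5.08 ± 0.25). *Ccl3* and *Ccl4*, chemokines of activated microglia, rose from 0.174 to 0.210 CPM to 1.55 to 1.79 CPM and from 0.0420 to 0.164 CPM to 0.595 to 1.04 CPM.

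Genes already present in control tissue rose less. The lysozyme gene *Lyz2* had 5.0, 6.56 and 5.67 CPM in F/M-N and 23.2, 22.3 and 23.4 CPM in F/M-T (edgeR log2 fold change 2.00 ± 0.08), and the lysosomal membrane gene *Cd68* 7.26, 6.73 and 7.77 CPM against 17.6, 19.1 and 19.3 CPM (1.36 ± 0.08). *Trem2*, the receptor that the disease-associated programme depends on, rose from 8.86 to 11.4 CPM to 20.04 to 24.3 CPM (1.12 ± 0.09). *Apoe*, *Lpl* and *Spp1*, which belong to the same programme and are also made by other cells, had log2 differences of 0.51, 0.41 and 0.30 and were not DEG.

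Of the 18 homeostatic genes, 14 were higher and none lower at an FDR below 0.1 at any fold, against 12.8% and 14.4% of all genes. The purinergic receptor gene *P2ry12* had 40.0, 42.5 and 42.8 CPM in F/M-N and 41.6, 41.0 and 42.1 CPM in F/M-T, and *Tmem119* 22 to 23.8 and 21.6 to 22.6 CPM, so that the genotypes overlapped for both. The fractalkine receptor gene *Cx3cr1* had 47.0 to 52.0 and 60.1 to 63.7 CPM (log2 difference 0.34, adjusted p = 1.9e-05), under the fold limit. *Ctss*, a lysosomal cathepsin of microglia, had 56.4, 57.9 and 57.0 CPM against 146, 135 and 140 CPM (log2 fold change 1.30 ± 0.04, adjusted p = 2.4e-15), and *Fcrls* rose from 15.9 to 18.9 CPM to 35.2 to 36.9 CPM (1.01 ± 0.06).

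Among complement genes, 7 of 17 tested rose, with a median of 0.46, against 2.63% of all genes. *C1qa*, which microglia secrete and which tags synapses, had 34.9, 34.5 and 35.1 CPM in F/M-N and 80.0, 77.3 and 79.9 CPM in F/M-T (edgeR log2 fold change 1.18 ± 0.04, adjusted p = 2.7e-14). *C4b*, made mainly by astrocytes and oligodendrocytes, rose from 24.5 to 27.1 CPM to 78.6 to 80.8 CPM (1.65 ± 0.05), and *C3* from 0.912 to 1.44 CPM to 2.87 to 3.23 CPM (1.29 ± 0.19). Of 22 Toll-like receptor and inflammasome genes tested, 10 rose (median 0.58, against the same 2.63%), among them *Tlr2*, from 1.27 to 1.87 CPM to 4.68 to 4.95 CPM (1.67 ± 0.16). The inflammasome product *Il1b* was not tested, with 2 to 5 counts per library in F/M-N and 7 in each F/M-T library.

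Over the disease-associated list, 12 genes passed the interaction test with the lower change in F/M and none with the higher one. The same counts were 15 and 0 for the homeostatic list and 7 and 1 for the complement list, where the shares over all genes were 6.58% lower and 1.06% higher in F/M. *Trem2* rose by 1.12 in F/M and 2.67 in Cb (interaction -1.57, adjusted p = 2.7e-10), and *C3* by 1.29 and 3.53 (-2.25, adjusted p = 1.5e-08). *Clec7a* (5.18 and 5.43) and *Itgax* (5.08 and 4.98) had interactions of -0.27 and 0.08 that did not pass (adjusted p = 0.79 and 0.92).

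**Figure D4:**
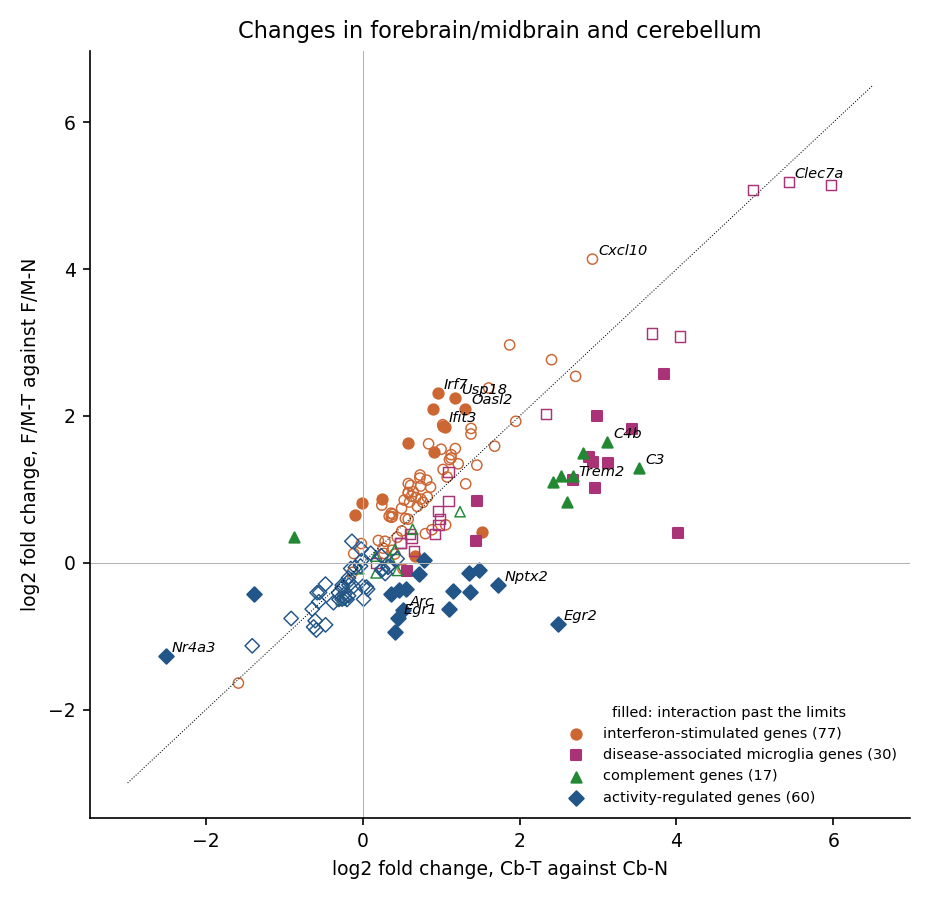
Each symbol is a gene tested in both tissues, placed by its log2 fold change in cerebellum (horizontal axis) and in forebrain/midbrain (vertical axis), with equal changes on the dotted line, and filled symbols passed the interaction test. Filled circles (interferon-stimulated genes such as *Irf7*, 2.31 in F/M and 0.96 in Cb) lie above the line except *Herc6* and *Oas1c*, and filled squares and most filled triangles (microglial and complement genes) lie below it.

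Of 32 reactive astrocyte genes tested, 11 rose and 1 fell, with a median of 0.28, against 2.63% and 0.858% of all genes. *Gfap* (chromosome 11, 102887336 to 102900912), the filament protein of reactive astrocytes, had 178, 177 and 182 CPM in F/M-N and 609, 595 and 617 CPM in F/M-T, giving a log2 fold change of 1.76 ± 0.03 (adjusted p = 1.2e-19). The protease inhibitor gene *Serpina3n* had 19.1, 18.4 and 21.1 CPM against 53.2, 49.4 and 50.0 CPM (1.38 ± 0.06), and *Timp1*, an inhibitor of matrix proteases, rose from 0.164 to 0.261 CPM to 0.571 to 0.782 CPM (1.72 ± 0.40). *Vim*, another filament gene of these cells, had 34.5 to 38.9 and 45.3 to 48.2 CPM, a log2 difference of 0.38 under the fold limit. Over the list, the change was lower in F/M than in Cb for 14 genes and higher for 1 in the interaction test (6.58% and 1.06% of all genes), and 3 of the listed genes are also interferon-stimulated.

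None of 16 homeostatic astrocyte genes was a DEG, and 12 were higher and none lower at an FDR below 0.1 at any fold (median 0.15), against 12.8% and 14.4% of all genes. The water channel gene *Aqp4* had 177, 178 and 173 CPM in F/M-N and 249, 257 and 237 CPM in F/M-T (log2 difference 0.49, adjusted p = 1.2e-09), and the glutamate transporter genes *Slc1a2* and *Slc1a3* differed by 0.10 and 0.13. The lists for oligodendrocytes (17 tested, median 0.0029), their precursors (8, median 0.060), choroid plexus (13, median 0.20), meningeal fibroblasts (11, median 0.17) and blood (5, median 0.28, all 5 higher at an FDR below 0.1 at any fold) held no DEG either, and 1 of 26 endothelial and mural genes, *Icam1*, rose, near the 2.63% of all genes that did. The choroid plexus gene *Ttr* stood at 512 to 551 CPM in F/M-N and 741 to 792 CPM in F/M-T (log2 difference 0.51, adjusted p = 2.7e-10).

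Of 34 hydrolase genes tested, 6 rose, *Tpp1* fell, and 23 were higher at any fold at an FDR below 0.1 (median 0.25), where 2.63% of all genes rose and 12.8% were higher at any fold. *Ctsd*, the aspartic protease whose own loss causes another ceroid lipofuscinosis, had 176, 160 and 180 CPM in F/M-N and 314, 297 and 309 CPM in F/M-T (edgeR log2 fold change 0.83 ± 0.04, adjusted p = 1.6e-12). Among those that rose were *Ctss*, *Ctsz*, *Ctsd*, *Ctsc* and *Ctsh*, which microglia express. The ceroid lipofuscinosis genes *Ppt1* and *Cln3* had log2 differences of 0.15 (adjusted p = 0.0023) and 0.05 (adjusted p = 0.66).

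The remaining lists are given beside the 2.63% of all genes that rose and the 0.858% that fell. Of 13 oxidative stress genes 5 rose (median 0.33), of 15 lysosomal membrane genes 3 rose (median 0.12), and of 13 ceroid lipofuscinosis genes 2 rose and *Tpp1* fell (median 0.053). Of 20 heat shock and endoplasmic reticulum stress genes 2 fell (median 0.0068). No DEG was found among 18 cholesterol genes (median 0.038), 12 proliferation genes (median 0.19) or 20 glutamatergic and GABAergic neuron genes (median -0.051). Of these 20 neuron genes, 9 were lower and none higher at an FDR below 0.1 at any fold, against 14.4% and 12.8% of all genes. Of 11 hypothalamic and pituitary genes 3 rose (median 0.37), and of 18 neuropeptide and VIP receptor genes 1 rose and 2 fell (median 0.044). Of 10 cerebellar genes 1 fell (median -0.018), none of 13 hindbrain *Hox* genes was tested, and 1 of 9 monocyte, neutrophil and border macrophage genes rose (median 0.14).

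**Figure D5:**
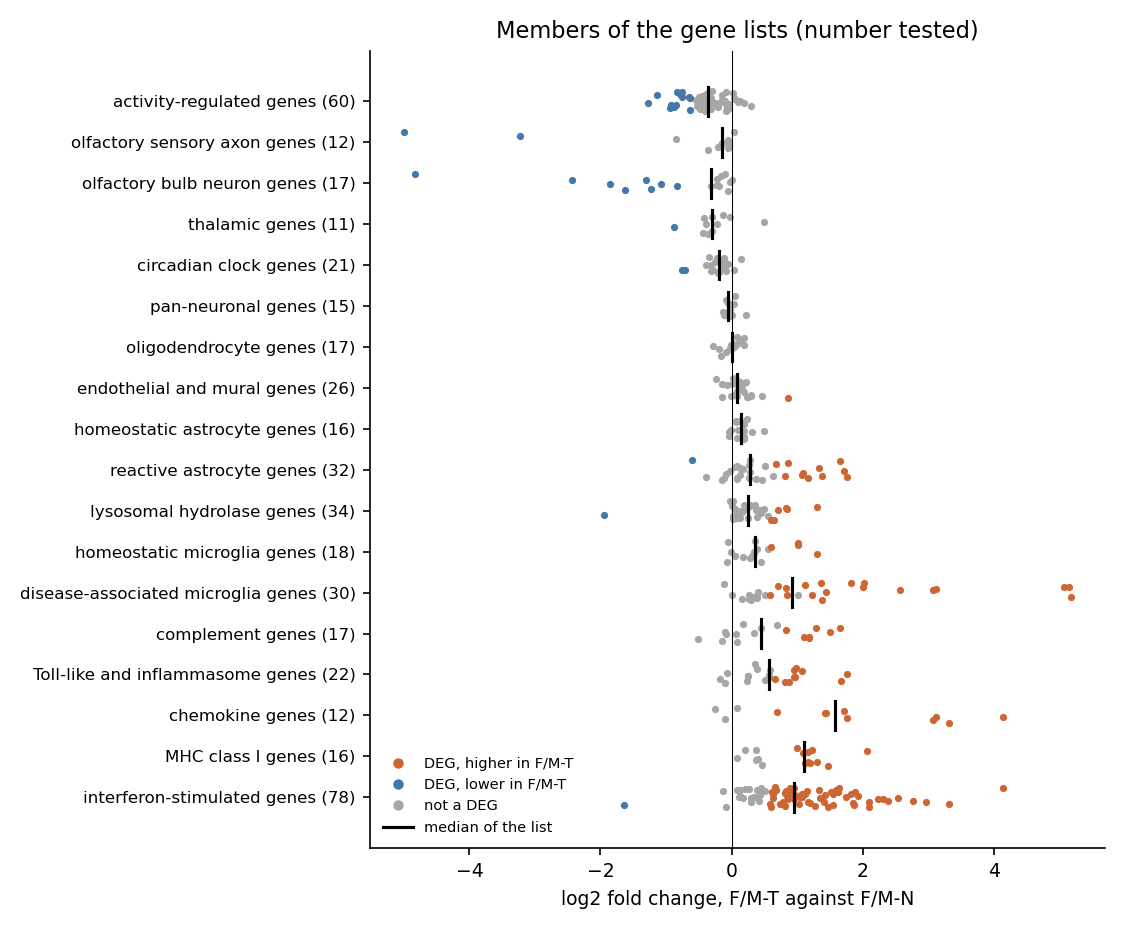
Each row is a gene list with the number of genes tested in brackets, each point is a gene placed by its log2 fold change between F/M-T and F/M-N, and the black line is the median of the list. Points spread vertically only to be seen apart. The medians run from -0.36 for activity-regulated genes to 0.93 for disease-associated microglia, 0.95 for interferon-stimulated, 1.10 for class I and 1.58 for chemokine genes, and the neuronal, oligodendrocyte and endothelial rows are centred near 0.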

How the data were processed

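RNA of the forebrain/midbrain and cerebellum of male *Tpp1*-/- and WT mice was sequenced by the study as stranded mRNA libraries, single-end. Per the labels, the authors aligned reads to mm10 with STAR and deposited raw read counts per gene made with featureCounts. The strand setting, the treatment of reads that match several places and the annotation release are not given in the sources used here, so near-identical and overlapping genes are uncertain. Samples were grouped by their titles.

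The counts of the 6 F/M libraries were filtered with filterByExpr, scaled by TMM and tested with edgeR 4.0.16 (glmQLFit and glmQLFTest, R 4.3.3), with Benjamini-Hochberg adjustment over all genes tested. Differences from cerebellum were the tissue-by-genotype interaction over the 12 libraries. Count ratios of rare genes have exact binomial intervals. The fit was tested on simulated data. Alternatives used DESeq2 1.42.0, limma 3.58.1 (voom), other scaling, filters and limits, a replicate block, and fits without each library. Promoter sequences are those of RefSeq (GRCm38.p6), which held 12011 of the 16665 genes tested.

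The members and gene lists were chosen with earlier results of these data known. Named genes are *Tpp1*, the 12 largest increases and 12 largest decreases without overlap, the first 3 genes of each marker list, up to 8 DEG per list with the largest change, any activity-regulated, olfactory or interferon gene, and DEG within 10 Mb of *Tpp1*. Other genes were named after their values were seen, and some genes that the rule takes in are not reported here.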

Additional observations from a re-analysis of the deposited data

Results flagged for a closer look

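Each gene below was singled out because its change in F/M differed from its change in Cb in edgeR's tissue-by-genotype interaction test over the 12 libraries. The values are the log2 fold change in F/M minus that in Cb, so a value below 0 is a lower change in F/M. Among activity-regulated genes, it was -1.22 for *Egr1*, -1.18 for *Arc*, -3.34 for *Egr2*, -1.75 for *Egr3*, -1.37 for *Maff*, -2.06 for *Nptx2*, 1.23 for *Nr4a3* and 0.94 for *Nr4a2*. Among olfactory genes and other large decreases, it was -3.89 for *Omp*, -3.27 for *Tbx21*, -3.56 for *Cdhr1*, -1.47 for *Doc2g* and -2.74 for *Frmd7*. *Omp*, *Tbx21* and *Frmd7* were too low in Cb to be tested there, so their values rest on few Cb counts and do not compare 2 measured changes. For the regional genes, it was -2.84 for *Tcf7l2*, -3.84 for *Vip*, 2.87 for *Slc6a4* and 1.31 for *Tph2*. Among interferon-stimulated and class I genes, it was 1.33 for *Irf7*, 0.83 for *Ifit3*, 0.73 for *Irf9*, 0.77 for *Oasl2*, 1.05 for *Usp18*, 0.78 for *Bst2*, 0.80 for *H2-D1*, -0.59 for *Herc6* and -1.12 for *Oas1c*. Among microglial genes, it was -1.0 for *Lyz2*, -1.78 for *Cd68*, -1.57 for *Trem2*, -1.20 for *Cx3cr1*, -1.01 for *Ctss*, -2.28 for *Fcrls* and -1.0 for *Tlr2*. Among complement, astrocyte and lysosomal genes, it was -1.52 for *C1qa*, -2.25 for *C3*, -1.49 for *C4b*, -1.17 for *Gfap*, -2.97 for *Serpina3n*, -1.55 for *Timp1* and -0.64 for *Ctsd*. Marker lists of other brain regions moved unequally between Cb-T and Cb-N, with median log2 fold changes in Cb from -0.22 for cortical and hippocampal genes to 2.26 for monoaminergic and cholinergic genes, and their part in these differences was not tested.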

How the results depend on the processing

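The 438 genes that rose and 143 that fell became 283 and 82 with DESeq2, 204 and 55 with a mean count of at least 50, and 2134 and 2407 without a fold limit. Without the fold limit, 43 activity-regulated and 16 olfactory genes were lower and 17 reactive astrocyte genes higher. With a mean count of at least 50, fewer genes were tested, 4 olfactory genes fell and the interaction count went from 1331 to 877. Leaving out each library in turn gave 367 to 471 genes that rose and 117 to 161 that fell. In 1 fit of all 12 libraries 69.7% of DEG rose, against 75.4% in the fit of 6.

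Deviations from the group mean were compared between F/M-N and F/M-T libraries. Their correlations were 0.013, 0.089 and 0.018 for equal replicate numbers and -0.081 to 0.063 for unequal ones. With so few libraries per group, these values cannot show whether the numbers pair the libraries. Whether F/M and Cb libraries of equal number share a mouse was not tested. With a replicate block 457 genes rose, 150 fell and 1346 had an interaction.

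Of 79 named genes with a call, 1 lost it when a library was left out (*Dusp4*) and none with RLE scaling or the block. DESeq2 gave an adjusted p for 69 of the 79, all of which kept their call, and none for the other 10, which have few counts. No call changed sign under these alternatives. *Oas1c*, not a DEG, passed without F/M-N replicate 1 (0.72). Uncalled genes near 0 changed sign: *Th* had -0.0035 with DESeq2, -0.0038 with RLE and -0.020 to 0.010 with a library left out, and *P2ry12* -0.038 to 0.010 with a library left out. At this depth 193 of the genes that rose and 32 of those that fell had a mean under 1 CPM in F/M-N, where few counts limit the fold change.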

Other observations

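The Y-linked genes did not move together, a comparison chosen after the values were seen. *Eif2s3y*, which encodes a translation initiation factor subunit, had 53.7, 52.6 and 53.1 CPM in F/M-N and 33.6, 32.2 and 34.6 CPM in F/M-T, giving a log2 fold change of -0.67 (edgeR, adjusted p = 1.2e-09). *Ddx3y*, *Kdm5d* and *Uty* had log2 differences of -0.03, 0.03 and -0.14.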
